A study of Mus musculus with 6 samples.

Results

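Fibroblast growth factor 21 (Fgf21), its co-receptor beta-klotho (Klb), the paracrine ligand Fgf1 and the 4 FGF receptor tyrosine kinases (Fgfr1, Fgfr2, Fgfr3 and Fgfr4) were followed in the liver RNA of 6 mice. These 7 genes were taken by symbol from a table of 21983 genes, and all 7 had enough counts to be tested among the 13153 genes that passed the low-count filter. All mice were C57BL/6 and had received thioacetamide (TAA), a hepatotoxin that scars the liver, in drinking water at 400 mg/L for 16 weeks. They carried floxed Prmt1 alleles (Prmt1f/f), Prmt1 encoding the main asymmetric arginine methyltransferase of cells. In 3 mice (49, 82 and 88, labelled Lrat-Cre; Prmt1f/f, called knockout) Cre was driven from Lrat, which in liver marks hepatic stellate cells. The other 3 (42, 83 and 90, labelled Prmt1f/f, called control) are labelled without Cre. The labels give an age of 10 weeks without saying how it relates to the 16 weeks of TAA, and give no sex. The comparison asked how fibrotic liver differs between these genotypes, and with no untreated mice the effect of TAA was not measured. Hepatocytes, which do not normally express Lrat, give most of the RNA of whole liver, and a lower level in such samples cannot be told apart as fewer cells of a type or less RNA per cell.

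FGF21 is an endocrine hormone that the liver releases in fasting and under cellular stress. It has little affinity for heparan sulfate and needs beta-klotho beside an FGF receptor, chiefly the FGFR1 c isoform, to signal. The same co-receptor joins FGFR4 in hepatocytes to receive the intestinal hormone FGF15, which represses bile acid synthesis. FGF1 is a heparin-binding ligand that can activate all 4 receptors without a klotho protein.

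Libraries held 13303884 to 16462278 counts, and levels are given as CPM, the usual depth-scaled count, on TMM-scaled library sizes. The targeted gene, Prmt1, was at 38.9, 44.4 and 49.8 CPM in the control livers and at 35.8, 24.7 and 25.8 CPM in the knockout livers. Its groups did not overlap, and its log2 fold change was -0.62 (SE 0.20; quasi-likelihood test in edgeR, adjusted p = 0.347). Hepatocyte markers were abundant in every liver, and their summed level overlapped between genotypes (73040 to 113292 CPM in control and 86821 to 103982 CPM in knockout livers). Most of this sum was Alb (means of 64192 and 68642 CPM). Of the 8 markers 5 were higher and 3 lower in knockout livers. Hnf4a (log2 fold change 0.65) and Cps1 (1.04) were higher without overlap, as were 8.94% of all genes, and the other markers overlapped. Markers of stellate cells and fibroblasts summed to 1086 to 1273 CPM in control livers and to 365 to 757 CPM in knockout livers, without overlap, 7 of 8 markers being lower. Bile duct markers overlapped, at 541 to 1316 CPM against 302 to 769 CPM, with 6 of 7 markers lower. Neutrophil markers did not overlap either (17.5 to 78.2 CPM in control and 11.1 to 16.9 CPM in knockout livers, 4 of 4 tested markers lower), and lymphocyte markers were lower in 6 of 6 with overlapping sums. Endothelial and macrophage sums overlapped. The libraries of control mouse 42 and knockout mouse 49 resembled each other (r = 0.977 over genes) more than either resembled any mouse of its own genotype, while knockout mice 82 and 88 were the closest pair (r = 0.984).

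Of the 7 genes, Fgf1 and Klb were separated between genotypes, both being higher in all 3 knockout livers than in any control liver. Fgfr1 was higher on average with overlap, Fgfr4 and Fgfr3 were slightly higher, Fgfr2 was slightly lower, and Fgf21 itself was low in all livers and lowest in knockout mice 82 and 88. By edgeR 0 of 7 members passed an adjusted p of 0.05, as did 0 of all 13153 genes (0%). DESeq2, a count test with another dispersion estimate, called Fgf1 and Klb (2 of 7) where it called 1.74% of all genes. At an unadjusted p under 0.05 edgeR gave 3 members (Fgf1, Klb and Fgfr1), all higher, against 11% of all genes (5.06% higher and 5.95% lower). Groups without overlap in the higher direction were found for 2 of 7 members and for 8.94% of all genes, and in the lower direction for 0 of 7 members and 7.95% of all genes. These small counts describe the members and are no test of the set.

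**Figure D1:**
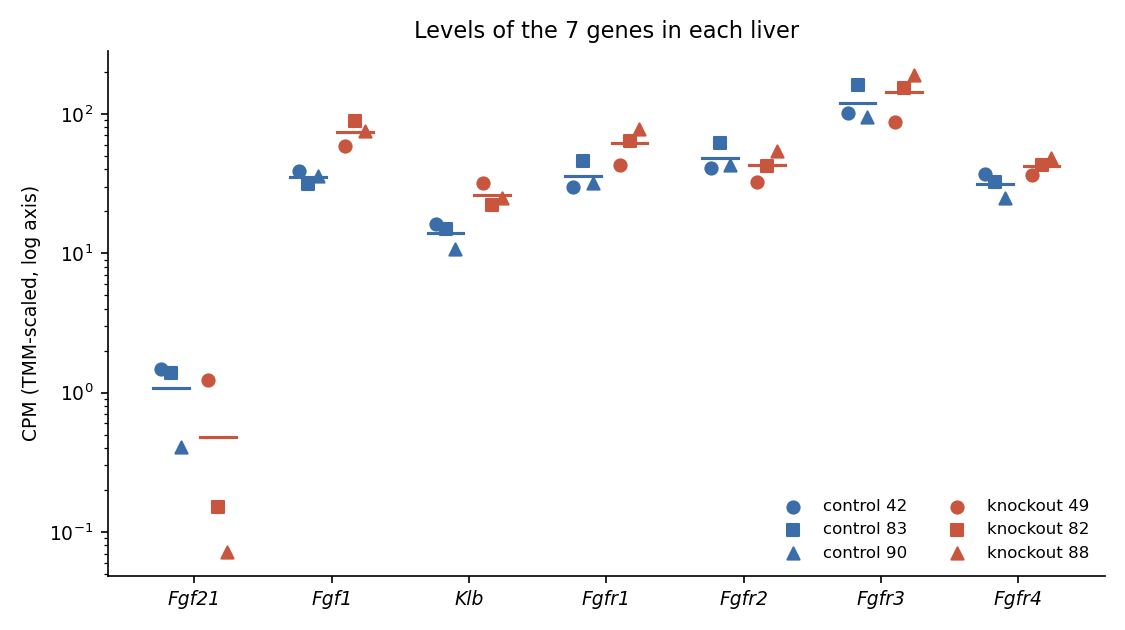
Level of each of the 7 genes in each liver, in CPM on a log axis, with control livers in blue and knockout livers in red. Marker shapes name the mice and short bars are group means. Fgf1 and Klb show no overlap between genotypes, and Fgf21 reaches at most 1.47 CPM while the lowest value of any other member is 10.8 CPM.

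Fgf1 had the smallest p of the 7 genes. It was at 38.6, 31.2 and 35.9 CPM in control mice 42, 83 and 90 and at 58.5, 88.7 and 74.8 CPM in knockout mice 49, 82 and 88. The lowest knockout liver, mouse 49, thus lay above the highest control liver, mouse 42, and the knockout mean was 210% of the control mean (74.0 ± 15.1 against 35.2 ± 3.74 CPM; SD, n = 3). Its log2 fold change was 1.07 (SE 0.20, 95% interval 0.62 to 1.52), and it ranked 25 among all tested genes by p. The adjusted p was 0.227 in edgeR and 0.00185 in DESeq2. DESeq2 no longer called it without control mouse 83 (adjusted p = 0.0699), knockout mouse 82 (0.113) or knockout mouse 88 (0.0747). The two-sided exact permutation p over the 20 assignments of 3 livers was 0.1, the smallest this design can give.

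Fgf1 lies on chromosome 18 from 38838673 to 38929472 on the minus strand (GENCODE M21, GRCm38), inside the span of Arhgap26 on the plus strand. The annotated exons of both genes share 0 bases. Arhgap26 was at 15.5 ± 3.53 CPM in control livers and 17.7 ± 3.13 CPM in the knockout group (SD, n = 3; log2 fold change 0.19). The strand setting of the counting is not given in the sources used here. Unspliced reads of Arhgap26 over Fgf1 exons could therefore not be told apart from Fgf1 reads.

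Klb, the co-receptor, was at 16.1, 14.9 and 10.8 CPM in control mice 42, 83 and 90 and at 31.7, 22.2 and 24.9 CPM in knockout mice 49, 82 and 88. Here mouse 49 was the highest liver and control mouse 90 the lowest. The means were 13.9 ± 2.78 and 26.3 ± 4.93 CPM (SD, n = 3), the knockout mean being 188% of the control mean. The log2 fold change of Klb, 0.91 (SE 0.23, 95% interval 0.40 to 1.42), gave adjusted p values of 0.288 in edgeR and 0.0406 in DESeq2. Among all tested genes 98.3% had a lower fold change. The exact permutation p was again 0.1, the smallest possible. DESeq2 kept its call without control mouse 42 (adjusted p = 0.0219) and lost it without control mouse 83 (0.237), control mouse 90 (0.089) and knockout mice 49 (0.152), 82 (0.173) and 88 (0.293). Klb lies on chromosome 5 from 65348314 to 65384007 on the plus strand, and no other annotated gene overlaps it.

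Fgf21, the hormone, was close to the lower limit of measurement. Its raw counts were 22, 27 and 5 in control mice 42, 83 and 90 and 19, 2 and 1 in knockout mice 49, 82 and 88. Scaled, these were 1.47, 1.37 and 0.409 CPM against 1.22, 0.150 and 0.0721 CPM. Knockout mouse 49 stood with control mice 42 and 83, and control mouse 90 stood nearer to knockout mice 82 and 88, so the groups overlapped. Summed over livers there were 54 control and 22 knockout counts, a scaled ratio of control to knockout of 2.24 with an exact 95% counting interval from 1.34 to 3.86. That interval covers counting error only. Across livers the fold change was -1.14 on the log2 scale (SE 0.89, 95% interval -3.16 to 0.88, edgeR adjusted p = 0.641), and the exact permutation p was 0.2. Without knockout mouse 49 the fold change was -3.22 (adjusted p = 0.211), without control mouse 42 it was -0.88, and without knockout mouse 88 it was -0.67, so its size depended on which liver was left out. The exocrine pancreas and fat also make FGF21. The pancreatic acinar markers Cpa1, Pnlip and Prss2 had 0 counts in every liver and the 6 acinar markers summed to at most 0.267 CPM, and the fat cell markers Adipoq and Lep had 0 counts in every liver. The 4 fat cell markers together summed to 18.0 to 34.6 CPM in control and to 4.68 to 25.9 CPM in knockout livers, nearly all of it from Cidec, a lipid droplet gene that fatty hepatocytes also express. Cidec was at 25.8 CPM in knockout mouse 49 and at 9.07 and 4.68 CPM in mice 82 and 88, low in the same livers as Fgf21, and its part in the Fgf21 level was not tested.

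The control region next to the Fgf21 start is shown because the transcription factors ATF4 and PPAR-alpha, whose targets are described below, act on this gene. The gene lies on chromosome 7 from 45613886 to 45615490 on the minus strand. The window is chr7:45615491-45615740, the 250 bases before the start, printed on the gene's strand from RefSeq's GRCm38.p6, and it touches no annotated exon. Capitals mark, in order, a match to the CEBP-ATF response element TGATGNAAN on the opposite strand (140 to 132 bases before the start), an E-box CACGTG (50 to 45 bases) and a TATA box TATAAA (28 to 23 bases).
Fgf21 upstream window: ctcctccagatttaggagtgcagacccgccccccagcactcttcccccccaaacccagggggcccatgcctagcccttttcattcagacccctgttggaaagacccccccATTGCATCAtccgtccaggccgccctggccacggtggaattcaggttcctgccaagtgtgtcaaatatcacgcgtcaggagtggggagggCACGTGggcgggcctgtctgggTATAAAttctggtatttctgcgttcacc
Each motif was searched on both strands in 32851 RefSeq windows of this length, and the matches here do not overlap each other. The CEBP-ATF letters occur in 3.44% of these windows, the E-box in 6.02% and the TATA box in 12.4%. The PPAR response element, searched as direct repeats of AGGTCA with 1 base between them, is found in 0.0335% of windows and is not in the Fgf21 window. Of the other members with a window in the table (Klb, Fgfr2, Fgfr3 and Fgfr4), 0 held any of the 4 motifs in the bases searched. A match is a run of letters and not a measured site.

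Among the receptors, Fgfr1 had the widest difference. FGFR1 is the receptor of mesenchymal cells and of FGF21 action in fat. It was at 29.9, 45.6 and 31.9 CPM in control mice 42, 83 and 90 and at 43.1, 64.1 and 77.9 CPM in knockout mice 49, 82 and 88. Only control mouse 83 and knockout mouse 49 overlapped. The means were 35.8 ± 8.56 and 61.7 ± 17.5 CPM (SD, n = 3). The fold change on the log2 scale was 0.78 (SE 0.26, 95% interval 0.20 to 1.37; edgeR adjusted p = 0.347, DESeq2 0.171; exact permutation p = 0.2). Its fold change was between 0.55 (without knockout mouse 88) and 1.0 (without control mouse 83) when livers were left out. DESeq2 called it only without knockout mouse 49 (adjusted p = 0.0204). The summed level of stellate and fibroblast markers was lower in all 3 knockout livers, with 7 of 8 markers lower on average. The other, Pdgfrb, was at 45.1, 50.4 and 38.8 CPM in control mice 42, 83 and 90. In knockout mice 49, 82 and 88 it was at 20.8, 47.7 and 68.6 CPM (log2 fold change 0.03), highest in mouse 88 as Fgfr1 was. The part of these cells in the Fgfr1 level was not tested. The gene lies on chromosome 8 from 25513654 to 25575718 on the plus strand, and a gene on the other strand, Gm16159, shares 1.66% of its exon bases.

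Fgfr4, the hepatocyte receptor for FGF15, was at 37.2, 32.4 and 25.03 CPM in control livers and at 36.6, 42.9 and 47.8 CPM in knockout livers, in the same order of mice. Control mouse 42 and knockout mouse 49 were alike, and the other knockout livers were the highest of the 6. This gave a log2 fold change of 0.43 (SE 0.20, 95% interval -0.03 to 0.88; edgeR adjusted p = 0.46), and it was 0.24 without control mouse 90. Klb was thus measured at 188% and its hepatocyte partner Fgfr4 at 134% of the control mean. The difference between these changes was not tested. Fgfr4 lies on chromosome 13 from 55152640 to 55168759 on the plus strand.

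Fgfr3 was the most abundant of the receptors and varied more among mice than between genotypes. It was at 102.0, 161.3 and 94.7 CPM in control mice 42, 83 and 90 and at 87.1, 152.1 and 191.0 CPM in knockout mice 49, 82 and 88. Knockout mouse 49 was the lowest of the 6 livers and knockout mouse 88 the highest. Its log2 fold change was 0.26 (SE 0.32, 95% interval -0.46 to 0.99; edgeR adjusted p = 0.763) and turned to -0.03 without knockout mouse 88. Fgfr3 lies on chromosome 5 from 33721674 to 33737068 on the plus strand. The gene G630022F23Rik on the opposite strand shares 13.9% of its exon bases, and reads there cannot be told apart without strand.

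Fgfr2, whose epithelial isoform receives FGF7 and FGF10, was at 41.1, 61.5 and 42.8 CPM in control livers and at 32.6, 42.1 and 54.0 CPM in knockout livers. The counts are per gene and do not separate its isoforms. Control mouse 83 was highest and knockout mouse 49 lowest. Its log2 fold change of -0.18 (SE 0.24, 95% interval -0.72 to 0.37; edgeR adjusted p = 0.79) was 0.03 without control mouse 83. Bile duct markers were lowest in knockout mouse 49 (302 CPM) and highest in control mouse 83 (1316 CPM), the same livers at the ends of the Fgfr2 order. Between these ends the orders differed. Control mouse 90 had 1225 CPM of these markers and knockout mouse 88 had 769 CPM, while Fgfr2 was at 42.8 and 54.0 CPM. The part of bile duct cells in the Fgfr2 level was not tested. Fgfr2 lies on chromosome 7 from 130162451 to 133123350 on the minus strand, a span that reaches Ctbp2, with which it shares 3.04% of its exon bases. The merged exon length of Fgfr2, 10328 bases, includes these. Many other annotated genes lie in this span, among them Ate1, Tacc2 and Oat, whose exons share 0 bases with those of Fgfr2.

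**Figure D2:**
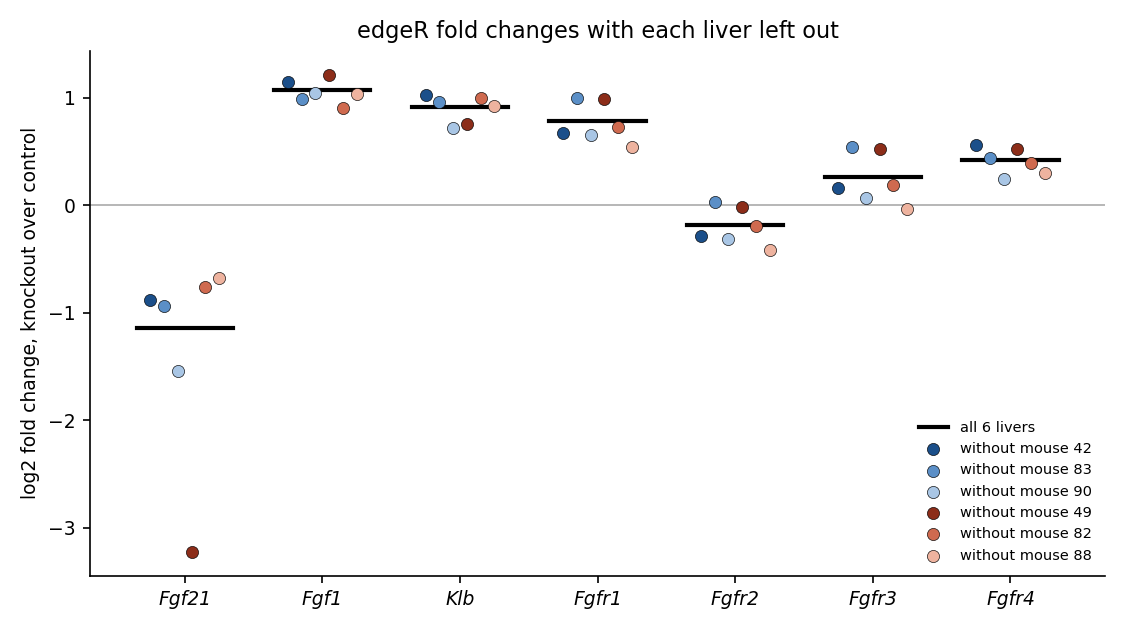
Log2 fold change (knockout over control, edgeR) of each gene with all 6 livers, as black bars, and with each liver left out, as points coloured by the mouse omitted. Fgf1, Klb, Fgfr1 and Fgfr4 stay above 0 throughout, and Fgf21 ranges from -3.22 without mouse 49 to -0.67 without mouse 88.

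Although Fgfr1 and Fgfr2 each overlapped between genotypes, their ratio did not, a comparison chosen after the values were seen. The number of Fgfr1 counts per Fgfr2 count was 0.728, 0.742 and 0.746 in control mice 42, 83 and 90. In knockout mice 49, 82 and 88 it was 1.32, 1.52 and 1.44. The ratio was nearly the same in the 3 control livers (0.738 ± 0.00941, SD, n = 3) although the level of each receptor differed among them, and it was higher in every knockout liver (1.43 ± 0.0993, SD, n = 3). The log2 difference was 0.95 (SE 0.06). An exact permutation test (two-sided) gave p = 0.1, the smallest the design allows. Any ratio with fully separated groups gives this p here. Leaving out any liver gave a difference between 0.90 and 1.01. The pair was chosen with its values known, and the choice among pairs of genes was not allowed for. The p, the SE and the leave-out range therefore describe the ratio and do not test it. This ratio does not depend on library scaling, but it compares these genes with each other and not with the rest of the liver's RNA.

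Levels of different genes were compared per kilobase of annotated exon (all transcripts merged). Control means in CPM per kilobase were 16.7 ± 5.10 for Fgfr3, 8.91 ± 1.73 for Fgfr4, 6.45 ± 0.685 for Fgf1, 4.69 ± 1.10 for Fgfr2, 3.63 ± 0.866 for Fgfr1, 3.06 ± 0.610 for Klb and 1.14 ± 0.615 for Fgf21 (SD, n = 3). Fgfr3 was above Fgfr4, and Fgfr4 above Klb, in 6 of 6 livers. Fgf21 was under every other member in 6 of 6 livers. Of the neighbours between these ends, Fgf1 and Fgfr4, Fgf1 and Fgfr2, Fgfr2 and Fgfr1, and Fgfr1 and Klb changed places between livers. Fgfr1 was under Fgfr2 in all 3 control livers and over it in all 3 knockout livers. Fgf1 was under Fgfr4 in all 3 control livers and over it in all 3 knockout livers. Divided by the longest coding transcript instead, Fgf1 was above Fgfr4 in 4 of 6 livers, Fgfr2 had a higher control mean (11.2) than Fgfr4 (9.49), and the first 2 relations held in 6 of 6 livers.

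As shares of the summed level of the 4 receptors per kilobase, Fgfr1 took 9.54%, 10.9% and 11.7% in control mice 42, 83 and 90 and 14.6%, 14.8% and 14.8% in knockout mice 49, 82 and 88. The share of Fgfr2 was 12.5%, 14.1% and 14.97% against 10.5%, 9.29% and 9.81%. Fgfr3 held 48.7% ± 4.29 in control and 46.3% ± 5.08 in knockout livers, and Fgfr4 held 26.8% ± 5.80 and 29.1% ± 4.73 (SD, n = 3), both with overlap. These shares rest on merged exon lengths, and the SDs do not cover the choice of length. Divided by the longest coding transcript, control means were 7.11 for Fgfr1, 11.2 for Fgfr2, 28.1 for Fgfr3 and 9.49 for Fgfr4. The order of Fgfr2 and Fgfr4 thus depended on the length used.

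**Figure D3:**
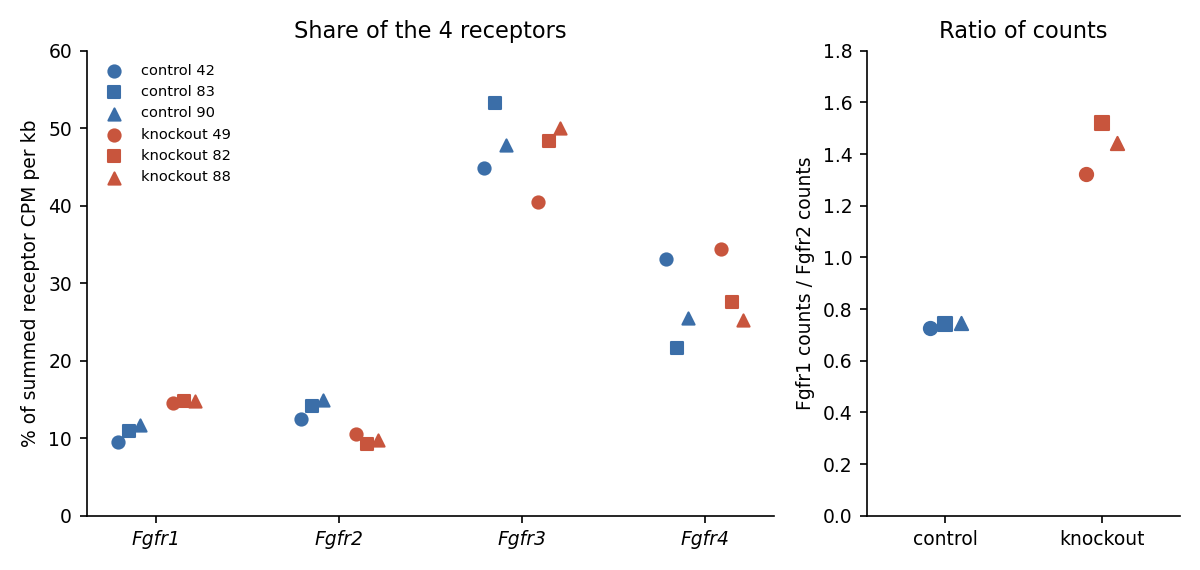
Left, share (%) of each receptor in the summed CPM per kilobase of the 4 receptors, by liver. Lengths are of all annotated exons merged, and the shares depend on that choice. Right, Fgfr1 counts divided by Fgfr2 counts. Control livers are blue and knockout livers red, with mice by marker shape. The Fgfr1 to Fgfr2 ratio lies between 0.728 and 0.746 in control and between 1.32 and 1.52 in knockout livers.

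For each member the 3 genes with the most similar log2 CPM over the 6 livers were taken from about 12482 candidates. With so many genes and 6 livers, correlations near 1 are reached by many genes. Fgf21 was followed most closely by Cenpf, Zwint and Prc1 (r = 0.998, 0.997 and 0.996), which encode kinetochore and spindle proteins of dividing cells. Klb was followed by Tab2, Cnst and Rpusd3 (r = 0.988, 0.983 and 0.981). Fgf1 was followed by the urate transporter gene Slc2a9 (r = 0.996), by Paics of purine synthesis (r = 0.991) and by Gabarapl1 of autophagy (r = 0.990). For Fgfr1 the genes were Cyp39a1, an oxysterol hydroxylase (r = 0.990), Nrbp2 and Fkbp5. For Fgfr2 they were the interleukin 17 receptor gene Il17re (r = 0.998), the mesenchymal homeobox gene Prrx1 (r = 0.995) and Cyp4f18. The Fgfr3 level was matched by Lamc3, Vasn and Klhl29 and that of Fgfr4 by Chd1l, Wdr81 and Daglb, each with r of at least 0.992. The correlations run over livers of both genotypes, and differences in genotype, total RNA makeup and scaling were not separated in them.

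The remaining genes of the pathway were read from lists of general knowledge, and 0 genes of any list passed edgeR's adjusted p of 0.05. The median log2 fold change over all tested genes was -0.02, and with total counts as the only scaling it moved to -0.17. Of 22 FGF ligand genes 5 could be tested. Besides Fgf1 and Fgf21 these were Fgf2, Fgf11 and Fgf12. Fgf2, a heparin-binding mitogen of fibroblasts and endothelium, was at 4.6, 7.22 and 5.64 CPM in control livers and, in knockout livers, at 2.58, 3.45 and 5.12 CPM (log2 fold change -0.65, SE 0.34, edgeR adjusted p = 0.505), the opposite sign to Fgf1. Fgf15, which is made in the intestine, had 0 counts in every liver. For Fgf7, a stromal ligand of the epithelial FGFR2 isoform, there were 6 control and 0 knockout counts over all livers. The klotho gene Kl, co-receptor of FGF23, had 2 counts in each genotype.

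Fgfrl1, a receptor without a kinase domain, was at 31.5 ± 4.30 and 36.1 ± 5.69 CPM (SD, n = 3; log2 fold change 0.20). Fap, the protease that inactivates FGF21, was at most 1.15 CPM in every liver and its sign depended on the liver left out. The receptor adaptors and RAS-ERK relay held 19 tested genes, 14 with a positive fold change, against 6216 of all 13153 tested genes. Their median was 0.17 (-0.04 without control mouse 90). Frs2, the docking protein of FGF receptors, was at 35.7 ± 10.5 and 43.2 ± 10.1 CPM, and Gab1 at 20.6 ± 6.62 and 26.9 ± 3.26 CPM (SD, n = 3), both with overlapping groups.

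Feedback and response genes of ERK, the kinase downstream of all FGF receptors, had a median of -0.20 over 19 tested genes (-0.06 without knockout mouse 82 and -0.36 without control mouse 42). By edgeR 0 passed the adjusted threshold and by DESeq2 0. The unadjusted p was under 0.05 for 3 lower and 0 higher genes, against 5.95% and 5.06% of all genes. Groups did not overlap for 4 of the 19 genes (Dusp5, Etv4, Ier3 and Junb), all lower, against 7.95% of all genes lower. The 4 genes of this list named by the fixed rule, Dusp6, Etv5, Spry2 and Spry4, had overlapping groups. Dusp6, an ERK phosphatase, was at 120.9 ± 16.4 and 110.6 ± 41.2 CPM (log2 fold change -0.13, 95% interval -0.73 to 0.47). Etv5, an ETS factor, was at 10.4 ± 1.76 and 11.02 ± 1.61 CPM (0.08, interval -0.44 to 0.60). Spry2 was at 3.30 ± 0.417 and 3.24 ± 0.443 CPM and Spry4 at 7.82 ± 2.55 and 9.81 ± 2.40 CPM (SD, n = 3). The 3 lower genes by unadjusted p were Dusp5 (log2 fold change -1.21), the ETS factor Etv4 (-1.92) and Ier3 (-1.09), each with separate groups. Etv4 was at 1.2, 3.05 and 1.8 CPM in control livers and, in knockout livers, at 0.773, 0.300 and 0.504 CPM. Several of these genes also answer to other growth factors.

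**Figure D4:**
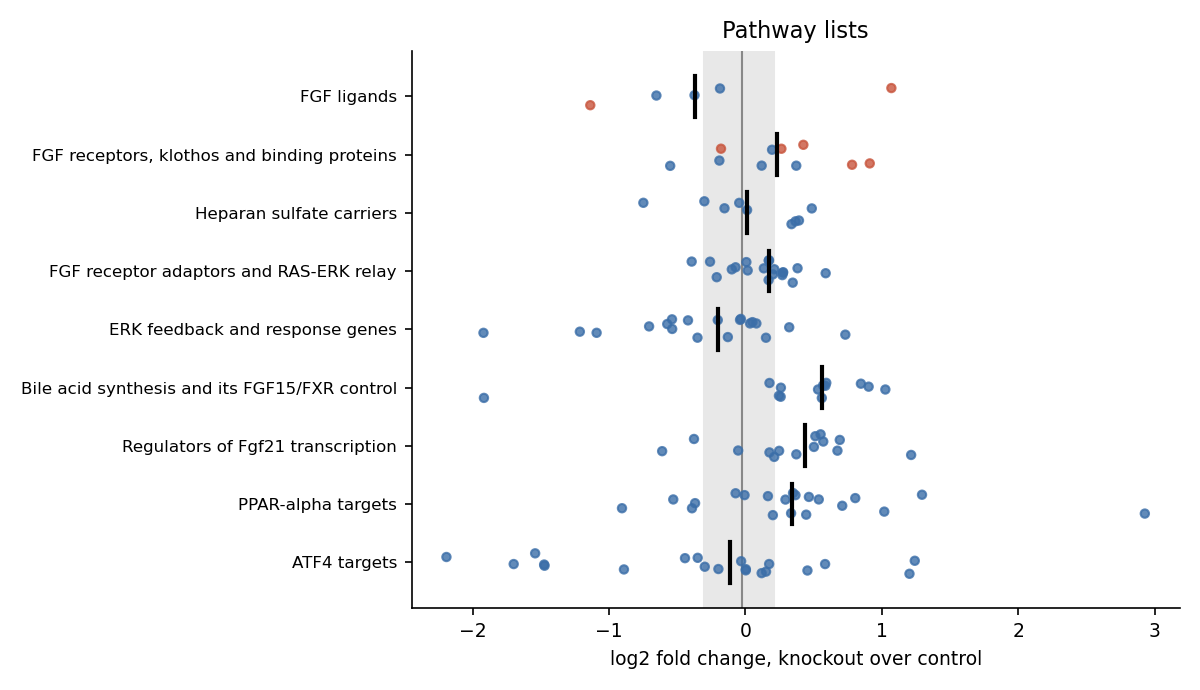
Log2 fold change (knockout over control, edgeR) of each tested gene of 9 lists, with the 7 member genes in red, other genes in blue, and the list median as a black bar; vertical spread is for display only. The grey band is the interquartile range of all tested genes and the grey line their median of -0.02, and the bile acid list has the highest median at 0.56.

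The bile acid list had the highest list median. It joins enzymes of bile acid synthesis, the process that FGF15 represses through FGFR4 and beta-klotho, with other bile acid genes. The latter are the nuclear receptor genes Nr1h4, Nr0b2 and Nr5a2 and the transporter genes Slc10a1 and Abcb11, so the list median is not one of synthesis alone. Of 13 tested genes 12 had a positive fold change, against 6216 of all 13153, and the median was 0.56. The unadjusted p was under 0.05 for 6 higher genes and 1 lower gene, against 5.06% and 5.95% of all genes. DESeq2 called 2 genes of the list, both higher, against 1.74% of all genes. These were Slc27a5 (log2 fold change 1.03), which activates bile acids for conjugation, and Abcb11 (0.85), the bile salt export pump. Cyp7a1, the rate-limiting enzyme, was at 147.1, 56.5 and 53.7 CPM in control livers and, in knockout livers, at 116.3, 66.5 and 125.4 CPM. Its groups overlapped (log2 fold change 0.26, SE 0.41, edgeR adjusted p = 0.824), and the value was 0.90 without control mouse 42 and -0.01 without control mouse 90. Cyp8b1, which sets the share of cholic acid, was the gene of the list with a negative fold change. It was at 103.9, 29.4 and 71.7 CPM in control livers and, in knockout livers, at 35.5, 6.59 and 11.9 CPM (log2 fold change -1.92, SE 0.63, edgeR adjusted p = 0.347). Knockout mouse 49 lay above control mouse 83. The bile acid receptor gene Nr1h4 was at 102.9 ± 17.2 and 116.3 ± 4.01 CPM, and its target Nr0b2 at 27.8 ± 13.6 and 40.1 ± 23.4 CPM (SD, n = 3).

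Regulators of Fgf21 transcription were mostly higher on average (11 of 14, against 6216 of all 13153 tested genes), while Fgf21 was not. Their median was 0.44, and 0.26 without control mouse 90. By DESeq2 0 were called. At an unadjusted p under 0.05 edgeR gave 4, all higher, against 5.06% of all genes higher. These were Mlxipl, Rxra (log2 fold change 0.69), Thrb (0.68) and Atf6 (0.57). Mlxipl, the carbohydrate-sensing factor ChREBP, was at 163.3, 67.2 and 86.4 CPM in control livers and, in knockout livers, at 151.0, 326.2 and 258.5 CPM (log2 fold change 1.22, SE 0.38, edgeR adjusted p = 0.345, DESeq2 0.0634). Ppara, the fasting receptor that induces Fgf21, was at 132.1, 64.2 and 21.2 CPM in control livers and, in knockout livers, at 94.8, 122.5 and 101.8 CPM. Control mouse 42 was the highest of the 6 and control mouse 90 the lowest. Its log2 fold change of 0.55 (SE 0.51) was 1.31 without mouse 42 and 0.08 without mouse 90. Creb3l3, a hepatocyte partner of PPAR-alpha on Fgf21, was at 211.7 ± 41.0 and 251.3 ± 48.9 CPM, and Atf4 at 120.7 ± 24.6 and 92.9 ± 31.3 CPM (SD, n = 3; log2 fold changes 0.25 and -0.38).

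PPAR-alpha targets were positive in 14 of 20 tested genes, against 6216 of all 13153. Their median of 0.34 was 0.05 without knockout mouse 49. Cyp4a14, a fatty acid hydroxylase, was at 41.2, 83.1 and 61.6 CPM in control livers and, in knockout livers, at 764.1, 473.7 and 178.6 CPM (log2 fold change 2.93, SE 0.51, edgeR adjusted p = 0.227, DESeq2 1.65e-07). Its close paralogs Cyp4a10 and Cyp4a31 can share reads with it, so the split among them is uncertain. DESeq2 called Cyp4a14 and Acsl1 (0.81), an acyl-CoA synthetase, both higher, against 1.74% of all genes called. Cpt1a, the gate of mitochondrial fatty acid oxidation, was at 414.0, 302.9 and 224.1 CPM in control livers and, in knockout livers, at 423.6, 443.4 and 432.6 CPM, without overlap (log2 fold change 0.47, edgeR adjusted p = 0.521; 0.23 without control mouse 90). Pdk4, which spares glucose in fasting, was at 53.1, 27.8 and 29.4 CPM in control livers and, in knockout livers, at 56.0, 12.4 and 15.6 CPM, low in mice 82 and 88 as Fgf21 was.

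ATF4 targets, the stress genes induced with Fgf21 through the CEBP-ATF element, had a median of -0.11 over 20 tested genes (9 positive and 11 negative), -0.32 without knockout mouse 49 and -0.01 without knockout mouse 82. Over all 13153 genes 6216 were positive and 6937 negative. At an unadjusted p under 0.05 edgeR gave 4 lower (Asns, Psat1, Phgdh and Nupr1) and 1 higher (Cth), against 5.95% and 5.06% of all genes. Asns, asparagine synthetase, was at 5.67, 3.61 and 2.13 CPM in control livers and, in knockout livers, at 1.22, 0.300 and 0.937 CPM (log2 fold change -2.19, SE 0.56, edgeR adjusted p = 0.305, DESeq2 0.0202). DESeq2 called Asns and Nupr1 (-1.70) as lower and Cth (1.24), which makes cysteine, as higher, against 1.74% of all genes called. Psat1 (-1.47) and Phgdh (-1.48) are enzymes of serine synthesis. Trib3, an ATF4-induced pseudokinase, had a positive fold change, at 5.0, 6.05 and 4.50 CPM in control livers and, in knockout livers, at 6.89, 9.67 and 6.85 CPM (log2 fold change 0.58, edgeR adjusted p = 0.459). Ddit3, which encodes CHOP, was at 19.5 ± 3.28 and 15.8 ± 5.56 CPM (SD, n = 3; log2 fold change -0.30). The letters TGATGNAAN occurred before the start of 6 of the 18 list genes with a window (Asns, Chac1, Atf3, Slc7a11, Nupr1 and Vldlr), against 3.44% of all 32851 windows. That share counts windows and not genes, and some list genes, such as Vldlr, had 2 windows. The Asns match was TGATGAAAC, 23 to 15 bases before its start.

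**Figure D5:**
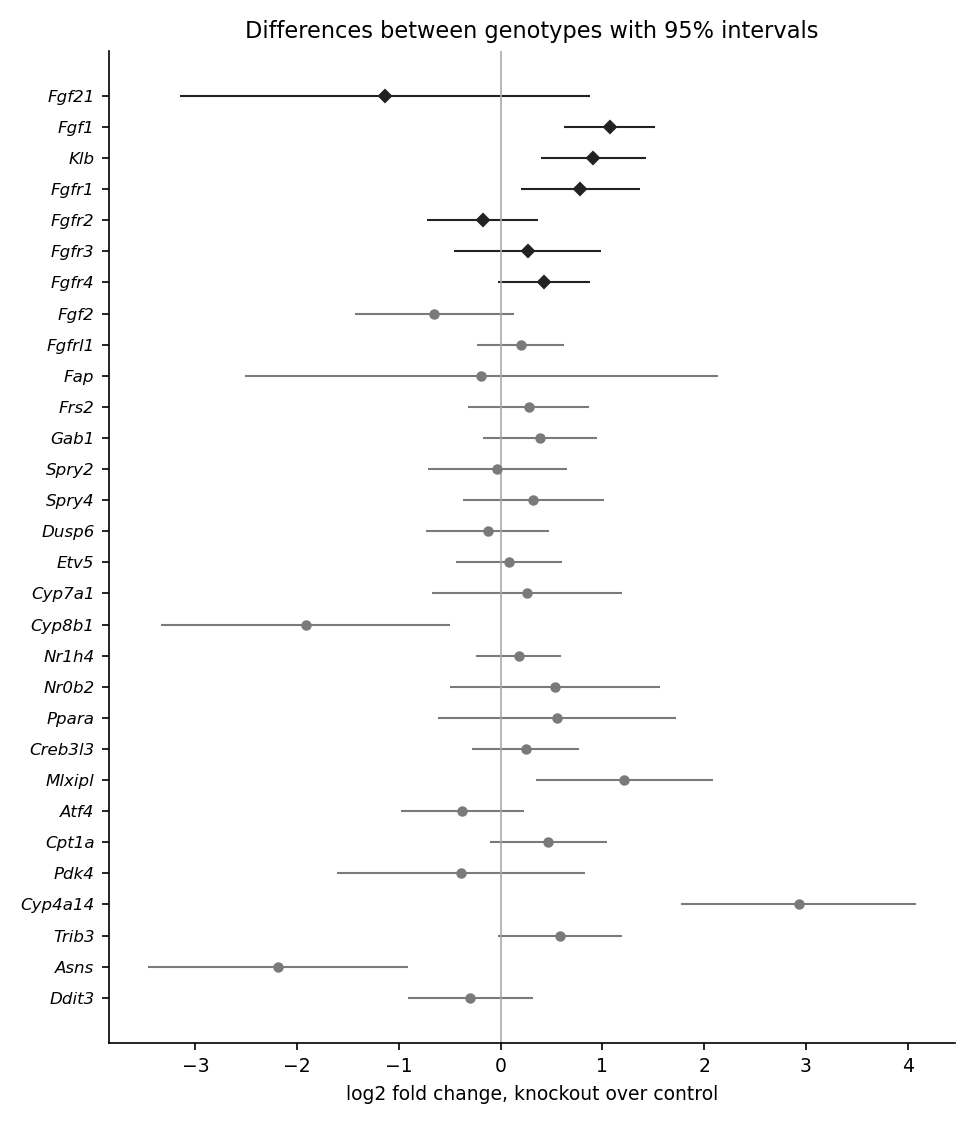
Log2 fold change (knockout over control, edgeR) of the 7 member genes (black diamonds) and the reported pathway genes named by the fixed rule (grey circles), with 95% intervals as horizontal lines. Only tested genes are drawn. The intervals of Fgf1, Klb and Fgfr1 lie above 0, and that of Fgf21 runs from -3.16 to 0.88.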

How the data were processed

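Liver RNA of 6 mice was sequenced, per the labels, and the authors deposited raw counts per gene symbol in a single table, 1 column per mouse. Per the submitters' processing notes, Trimmomatic, FastQC, STAR, HTSeq and mm10 were used. The annotation and the strand setting were not given in the sources used here. Columns were matched to mice by mouse number, with 0 columns of other samples. Counts were filtered with filterByExpr, scaled by TMM and tested with edgeR 4.0.16 (R 4.3.3, quasi-likelihood, Benjamini-Hochberg over 13153 genes), with DESeq2 1.42.0 and limma 3.58.1 as alternatives. SEs come from the fold change and its F statistic. Log2 CPM used a prior count of 2. The test was tried on simulated counts with known changes, in 3 runs with 100 genes changed at each fold. At an adjusted p of 0.05 edgeR recovered 19.7% of 2-fold and 82.7% of 4-fold changes on average, with 10 false calls. Most 2-fold changes were thus missed in the simulated counts. Whether these rates hold for the livers was not tested. In the livers edgeR called 0 of 13153 genes. Those not called include Cyp4a14 (log2 fold change 2.93, edgeR adjusted p = 0.227) and Asns (-2.19, edgeR adjusted p = 0.305). The members and lists were chosen with earlier results of these data known. The 7 members, Prmt1 and other pathway genes were named by a fixed rule, as were the 3 most similar genes of each member. Cyp4a10, Cyp4a31, Fgf11, Fgf12, Arhgap26, Dusp5, Etv4, Ier3, Junb, Cidec, Slc27a5, Abcb11, Acsl1, Rxra, Thrb, Atf6, Psat1, Phgdh, Nupr1, Cth and the genes of the closing section were chosen after their values were seen. Alternatives covered scaling, filtering, tests, abundant genes, a term for mouse number and each mouse left out. Depth ranged from 13303884 to 16462278 counts, 1 count being worth 0.0508 to 0.0818 CPM.
Gene positions and lengths come from GENCODE M21 (GRCm38), promoter windows from RefSeq GRCm38.p6, where 5 of 7 members matched. A gene of the naming rule is not reported here.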

Additional observations from a re-analysis of the deposited data

How the results depend on the processing

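No paired analysis was made because the labels give no pairing of mice between the genotypes. The number of genes past an adjusted p of 0.05 was 0 in edgeR with all livers (1448 at an unadjusted p under 0.05), 4 without a low-count filter, 6 with a term for the mouse number range (under or over 80), 3 at an adjusted p of 0.10 and 243 in DESeq2. Chosen after seeing the data, DESeq2 on the genes edgeR tested gave 238. With 1 liver left out edgeR called between 0 and 13 genes, the latter without knockout mouse 49. DESeq2 called 733, 47 and 249 without control mice 42, 83 and 90, and 473, 46 and 60 without knockout mice 49, 82 and 88. Of the members, DESeq2 called 2 in both forms, between 0 and 2 with a liver left out, and edgeR 0 in each case. Klb had a log2 fold change of 0.914 in DESeq2 on all genes and 0.907 on the genes edgeR tested, past the threshold in both, and in edgeR it ranged from 0.72 to 1.03 over the liver left out. Signs turned for 8 named genes, whose ranges over the liver left out were as follows. Fgfr2 ranged from -0.41 to 0.031 (without control mouse 83, and 0.046 there in DESeq2). Fgfr3 ranged from -0.035 (without knockout mouse 88) to 0.54. Spry2 ranged from -0.18 to 0.073 (without 83), and was 0.029 without 49. Dusp6 ranged from -0.48 to 0.013 (without 88). Cyp7a1 ranged from -0.013 (without 90) to 0.90 and Nr0b2 from -0.032 (without 82) to 0.94. Etv5 ranged from -0.046 (without 42) to 0.20, and was -0.031 without 88 and -0.082 with total counts only. Fap ranged from -1.36 to 0.27 (without 90), with 0.093, 0.16 and 0.15 without 83, 49 and 82, 0.48 in limma-voom and 0.055 with the mouse-number term. For these the cause was not tested. The other 37 of 45 named genes kept their direction in all 15 planned settings. Low counts limit Fgf21, Fap, Fgf7 and Kl.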

Other observations

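Heparan sulfate chains hold paracrine FGFs such as FGF1 and FGF2 at the cell surface, and 9 of 10 genes for their carrier proteins were tested. Their fold changes were spread around 0, 5 positive and 4 negative, with 0 called by edgeR or DESeq2 and 0 at an unadjusted p under 0.05. Sdc4, a syndecan, averaged 285 ± 58.8 CPM in control livers and 399.5 ± 23.4 CPM in the knockout group. Gpc4, a glypican, was at 50.8 ± 7.13 and 65.5 ± 6.39 CPM (SD, n = 3). Both were higher in knockout livers without overlap, as were 8.94% of all genes. Sdc1, the main syndecan of hepatocytes, was at 316 ± 8.34 and 319 ± 22.5 CPM (SD, n = 3).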
